A study of Mus musculus with 7 samples.

Results

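The genes described here are 34 mitotic genes, whose products drive a cell from the end of G2 through chromosome segregation to cytokinesis. They were chosen by name, for their roles, and found on the array as the non-control probes whose listed transcript belongs to one of them. All 34 genes had such a probe, and together they had 51 of the 56605 probes, while 22098 genes were tested in all. The RNA came from MIN6, a mouse insulinoma line that makes insulin and, unlike most beta cells of an adult islet, keeps dividing in culture. The cells had been cultured for 3 days with MPE, a polysaccharide extract of Maidong (4 samples), or with phosphate-buffered saline as its vehicle (3 samples). All samples came from this line and differed, as far as the labels say, only in the treatment. The highest MPE concentration in the culture notes is 50 μg/mL, and the labels do not give the one used for the arrays.

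Each sample was labelled with Cy3 from 100 ng of total RNA and hybridized to its own 1-colour Agilent array. Whether the replicates were grown as separate cultures is not stated, and the p-values therefore cover the spread of these samples alone, which can be technical. A single slide carried the 7 arrays, MPE in row 2 and vehicle in row 1, so a slide-row effect and an effect of MPE cannot be told apart. MPE arrays had 27902 to 28465 probes well above background, and vehicle arrays had 29496 to 30111. Of 16 beta-cell marker genes, 15 were well above background on all 7 arrays, Ins1 and Ins2 among them, and the glucose transporter gene Slc2a2 on none. Of 8 exocrine and duct markers, 5 were on no array, 2 on some and 1, Cel, on all 7. The mean level of Cel was -2.23 in MPE and -3.86 in vehicle. Markers of other cell types were also well above background on all 7 arrays. These were 4 of 5 other islet hormone genes, 3 of 6 immune, 3 of 7 fibroblast and smooth muscle, and 1 of 5 endothelial markers. Every level below is a log2 intensity relative to the 75th percentile of its own array and can be compared between arrays for the same probe, not between probes.

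Entry into mitosis depends on CDK1 bound to A-type and B-type cyclins, and exit depends on the anaphase-promoting complex, which marks cyclin B and securin for destruction. In between, Aurora and Polo-like kinases build the spindle, the kinetochore attaches chromosomes to it, and the spindle assembly checkpoint holds back anaphase until all are attached. Transcripts of these genes are made mainly in late S phase, G2 and mitosis, so in a bulk sample they are widely read as a sign of the share of cycling cells. In such RNA, fewer dividing cells and less RNA per dividing cell cannot be told apart. Many of their promoters are known to carry CCAAT boxes, bound by NF-Y, and a cell cycle genes homology region (CHR), the element through which the MuvB core complexes act, first in repression with the DREAM complex and then in activation with B-Myb and FOXM1.

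Promoters from RefSeq (GRCm38.p6, 250 bases before to 50 after the start) were searched for these elements on both strands. The table held promoters for 28 of the 34 genes, and Ccna2, Cdc25c, Foxm1, Aurkb, Tpx2 and Kif20a were not among them. At least 1 CCAAT was found in 22 of the 28 promoters (78.57%), against 37.92% of the promoters of all 27025 genes in the table, and at least 2 in 14 (50.0%), against 12.16%. The CHR words TTTGAA or TTCGAA were found in 20 of them (71.43%), against 19.44% of all. Both elements were present in 19 promoters (67.86%), against 7.7% of all. The E2F word GGCGGGA was found in 8 (28.57%), against 11.39%. Matches were counted whether or not the words overlapped. Promoters of Melk, Birc5, Mad2l1, Nuf2 and Nusap1 held neither element in this window. A match describes the letters only and shows no binding. The windows printed here, 150 bases before to 15 bases after the start, were picked after the matches were seen, to show how the elements are arranged in genes whose values the results turn on, with Birc5 as a window without them. Capitals mark each CCAAT, which reads ATTGG when it lies on the other strand. They also mark each CHR word, where a TTTGAA on the other strand reads TTCAAA. The regions are chr9:70421540-70421704 on the minus strand for the cyclin B2 gene Ccnb2, chr10:69352898-69353062 on the minus strand for Cdk1, chr4:118437329-118437493 on the minus strand for Cdc20, chr7:135716365-135716529 on the minus strand for Mki67, chr11:99024175-99024339 on the minus strand for Top2a, and chr11:117849087-117849251 on the plus strand for Birc5.
Ccnb2: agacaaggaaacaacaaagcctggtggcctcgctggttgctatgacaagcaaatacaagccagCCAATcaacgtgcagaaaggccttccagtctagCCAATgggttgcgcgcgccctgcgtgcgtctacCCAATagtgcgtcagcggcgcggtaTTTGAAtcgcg
Cdk1: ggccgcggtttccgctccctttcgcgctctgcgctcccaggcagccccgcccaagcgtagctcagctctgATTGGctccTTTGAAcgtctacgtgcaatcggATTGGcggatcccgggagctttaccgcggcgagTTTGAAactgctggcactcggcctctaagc
Cdc20: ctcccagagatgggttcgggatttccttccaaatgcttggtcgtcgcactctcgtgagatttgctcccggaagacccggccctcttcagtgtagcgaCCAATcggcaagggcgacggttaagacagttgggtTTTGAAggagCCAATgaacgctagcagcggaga
Mki67: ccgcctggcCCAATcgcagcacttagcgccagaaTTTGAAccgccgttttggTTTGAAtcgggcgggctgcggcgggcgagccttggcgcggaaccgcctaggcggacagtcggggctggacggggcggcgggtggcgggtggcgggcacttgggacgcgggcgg
Top2a: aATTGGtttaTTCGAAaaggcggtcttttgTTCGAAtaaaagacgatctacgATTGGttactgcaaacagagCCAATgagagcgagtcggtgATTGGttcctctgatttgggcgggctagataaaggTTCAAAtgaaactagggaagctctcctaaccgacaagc
Birc5: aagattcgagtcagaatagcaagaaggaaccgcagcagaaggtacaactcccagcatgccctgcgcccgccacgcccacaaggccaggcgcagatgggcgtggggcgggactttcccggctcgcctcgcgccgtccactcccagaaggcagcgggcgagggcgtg

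In the Ccnb2 window 3 CCAAT words lay 33 bases apart from first base to first base, the nearest 21 bases before the start, with a CHR word beginning at base 5 of the transcript. In the Cdk1 window 2 CCAAT words on the opposite strand lay 32 bases apart, and the nearer of its CHR words began 15 bases before the start. Cdc20 had CCAAT words 45 bases apart on either side of a CHR word that began 18 bases before the start. The elements of Mki67 lay farther up, with CHR words that began 116 and 98 bases before the start. Top2a had 4 CCAAT words and 3 CHR words. The order and spacing of the elements thus differed between these genes.

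The comparison of MPE with vehicle asks whether the mitotic transcripts of these beta cells differed after 3 days with the extract. None of the 34 genes passed the test (limma, Benjamini-Hochberg adjusted p = 1 for each), where 0.00453% of all genes tested passed. None had an unadjusted p below 0.05 either, against 4.1% of all genes (0.756% higher in MPE and 3.35% lower), and the smallest was 0.1116, for Mki67. The log2 differences, MPE minus vehicle, lay between -0.12 for Mki67, the proliferation antigen that coats mitotic chromosomes, and 0.16 for Cdk1, the kinase that drives entry into mitosis. The difference was above 0 for 12 genes and below 0 for 22 (35.3% above 0, against 42.3% of all genes). Its median was -0.0162 over the 34 genes and -0.0159 over all genes tested, so in this fit the genes lay where the typical gene lay.

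All 51 probes were well above background on all 7 arrays, so the transcripts were well above background in both groups. The values used for the 34 genes lay above the array's 75th percentile in all 238 cases, from 0.86 to 6.02. They come from the brightest probe of each gene, a choice that favours high values. Other probes of Foxm1, Ttk, Aurkb and Racgap1 lay below that percentile, down to -1.98. Small differences between arrays were less certain, since probes of the same gene had a median correlation of only 0.272. The standard error of a difference was between 0.0449 and 0.141, with a median of 0.0626, against 0.0837 over the 19700 genes measured on all arrays in the same way. The 95% confidence interval of the difference lay inside 1.2-fold in either direction for 30 of the 34 genes (88.2%), against 50.4% of those 19700 genes. Exceptions were Cdk1, Cenpa, Cdc20 and Mki67. It lay inside 1.5-fold for all 34 genes, against 88.4% of those 19700 genes. The 19700 genes include many dimmer ones, and no comparison at like brightness was made, so the narrower intervals are not a trait of mitotic genes as such. These intervals bound the size of a change in these samples and do not show that the levels were equal.

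**Figure D1:**
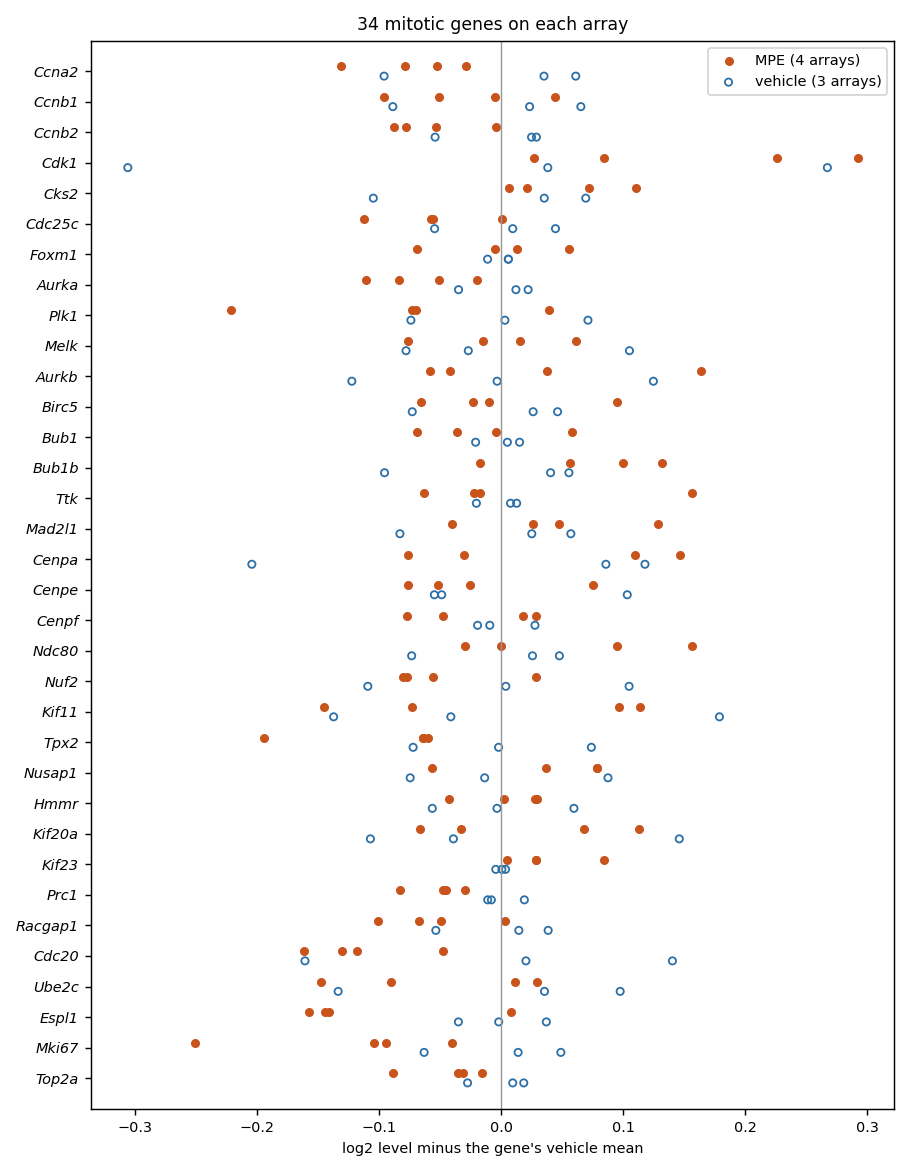
Level of each of the 34 genes on each array, as log2 level minus the gene's own vehicle mean (horizontal axis), with 4 filled MPE points above 3 open vehicle points in each row. The points, from the brightest probe of each gene, overlap between MPE and vehicle for all genes but Kif23 and Prc1, and Cdk1 has the widest spread.

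The cyclins, CDK1 and its activators come first in the order of events. Cdk1 stood at 2.60, 2.66, 2.87 and 2.80 on the MPE arrays, and at 2.27, 2.62 and 2.85 on the vehicle arrays. Vehicle replicate 1 lay below every other array and the remaining values overlapped. The difference was 0.16 ± 0.141 (SE, adjusted p = 1, limma), or 1.12-fold with a 95% interval of 0.885 to 1.41. Without vehicle replicate 1 it was 0.0046, and without vehicle replicate 3 it was 0.29, so the estimate rests on single vehicle arrays. Ccnb1, which encodes cyclin B1, was at 4.87, 4.92, 4.97 and 4.83 in MPE and at 4.95, 4.99 and 4.83 in vehicle, a difference of -0.03 ± 0.062 with overlapping groups, which was between -0.0709 and 0.0062 with single arrays left out. Ccnb2, the cyclin B2 gene, differed by -0.06 and Ccna2, which encodes cyclin A2, by -0.07. Cks2, a small subunit that binds CDK1, differed by 0.05, and Cdc25c, the phosphatase that activates CDK1, by -0.06. Of these 6 genes 2 lay above 0 and 4 below, and none passed.

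FOXM1 is the transcription factor that activates many of the other genes. Foxm1 was at 3.18, 3.16, 3.22 and 3.10 in MPE and at 3.16, 3.17 and 3.17 in vehicle, a difference of -0.0014 ± 0.0505. The 3 vehicle values lay inside the MPE range. Plk1, the Polo-like kinase of spindle poles and kinetochores, was at 4.84, 4.69, 4.83 and 4.95 in MPE and at 4.83, 4.98 and 4.91 in vehicle. MPE replicate 2 was the lowest array, the groups overlapped, and the difference was -0.08 ± 0.0752. It was -0.0346 without MPE replicate 2 and -0.12 without MPE replicate 4. Aurka, the Aurora kinase of spindle poles, differed by -0.07, and Melk, a kinase whose transcript follows the cell cycle, by -0.0036.

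The chromosomal passenger complex, which corrects wrong attachments and later guides cytokinesis, was represented by its kinase Aurkb and by Birc5, which encodes survivin. Aurkb was at 1.95, 1.94, 2.16 and 2.03 in MPE and at 1.87, 2.12 and 1.99 in vehicle, a difference of 0.025 ± 0.0841. Birc5 was at 5.73, 5.79, 5.89 and 5.77 in MPE and at 5.72, 5.84 and 5.82 in vehicle, a difference of -0.00074 ± 0.0611. Replicate 1 was lowest in vehicle for both genes, and replicate 3 highest in MPE. Without vehicle replicate 1 the difference was -0.036 for Aurkb and -0.0373 for Birc5, and without vehicle replicate 2 it was 0.0876 for Aurkb and 0.0225 for Birc5.

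Among the 4 genes of the spindle assembly checkpoint, 3 lay above 0 and 1 below, with a median difference of 0.0269, and none passed. Bub1b, which encodes the checkpoint protein BubR1, was at 1.07, 0.99, 1.14 and 1.11 in MPE and at 0.92, 1.07 and 1.05 in vehicle. Vehicle replicate 1 was again the lowest array, and the difference was 0.07 ± 0.0638, or 0.0196 without that array. Mad2l1, whose product Mad2 holds Cdc20 inactive, differed by 0.04, and by -0.001 without vehicle replicate 1. The kinase gene Ttk differed by 0.0135, and by -0.0341 without MPE replicate 1, and the kinase gene Bub1 by -0.0128.

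Of 5 centromere and kinetochore genes 2 lay above 0 and 3 below, with a median of -0.0196. Ndc80, whose product binds microtubules at the kinetochore, was at 1.16, 1.25, 1.31 and 1.13 in MPE and at 1.08, 1.18 and 1.21 in vehicle, a difference of 0.06 ± 0.0665 with overlapping groups, or 0.0189 without vehicle replicate 1. Nuf2, whose product is the partner of Ndc80 in the same complex, differed by -0.05. Cenpa, the histone H3 variant of centromeres, differed by 0.04, the kinetochore motor gene Cenpe by -0.0198, and Cenpf, whose product binds kinetochores and microtubules, by -0.0196. Among the spindle genes, Tpx2, whose product activates Aurora A, had the largest difference in size, -0.10, and Kif11, the motor that separates spindle poles, the smallest, -0.0019. Nusap1 and Hmmr, both encoding microtubule-binding proteins, differed by 0.03 and 0.0043.

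For 2 of the 34 genes, both of the central spindle, every MPE value of the brightest probe lay on one side of every vehicle value, as it did for 4.52% of all genes. Kif23, a kinesin of the centralspindlin complex, was at 1.38, 1.36, 1.38 and 1.44 in MPE and at 1.36, 1.35 and 1.36 in vehicle (1.17% of all genes lay wholly higher in MPE). Prc1, which bundles the microtubules of the midzone, was at 5.03, 5.00, 5.05 and 5.04 in MPE and at 5.07, 5.10 and 5.07 in vehicle (3.35% of all genes lay wholly lower in MPE). Both separations were narrow, with differences of 0.04 and -0.05 in opposite directions and unadjusted limma p of 0.4564 and 0.2933. Each gene had another probe, on which the groups overlapped. That probe of Kif23 was at 0.861, 0.658, 0.653 and 0.695 in MPE and at 0.681, 0.715 and 0.566 in vehicle. That of Prc1 was at 2.582, 2.521, 2.675 and 2.611 in MPE and at 2.556, 2.717 and 2.557 in vehicle. Racgap1, the centralspindlin partner of Kif23, differed by -0.05, and the cytokinesis kinesin gene Kif20a by 0.02.

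Cdc20, Ube2c and Espl1, which act at the start of anaphase, had differences below 0, as did most genes tested, and none passed. Cdc20, the activator of the anaphase-promoting complex, was at 5.51, 5.46, 5.50 and 5.58 in MPE and at 5.47, 5.77 and 5.65 in vehicle. Vehicle replicates 2 and 3 lay above every MPE array and vehicle replicate 1 at their low end. The difference was -0.11 ± 0.0795 (unadjusted p = 0.1932), and -0.19 without vehicle replicate 1, against -0.04 without vehicle replicate 2. Espl1, which encodes separase, the protease that cuts cohesin, was at 1.60, 1.60, 1.58 and 1.75 in MPE and at 1.74, 1.78 and 1.71 in vehicle. MPE replicate 4 lay among the vehicle arrays and the other MPE arrays below them, and the difference was -0.11 ± 0.0602 (unadjusted p = 0.115). Ube2c, the ubiquitin-conjugating enzyme of the complex, differed by -0.05. The median of these 3 genes was -0.11.

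Mki67 was at 5.93, 5.88, 5.72 and 5.87 in MPE and at 5.98, 6.02 and 5.91 in vehicle. MPE replicate 3 was the lowest array, MPE replicate 1 lay within the vehicle range, and the difference was -0.12 ± 0.067, or 0.919-fold with a 95% interval of 0.823 to 1.03. It was -0.0792 without MPE replicate 3. Top2a, which encodes the topoisomerase that untangles sister chromosomes, was at 5.23, 5.16, 5.21 and 5.21 in MPE and at 5.26, 5.25 and 5.22 in vehicle. Its groups overlapped narrowly, with a difference of -0.04 ± 0.0469. The intervals of both genes, which are widely used to score proliferation, include 0.

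**Figure D2:**
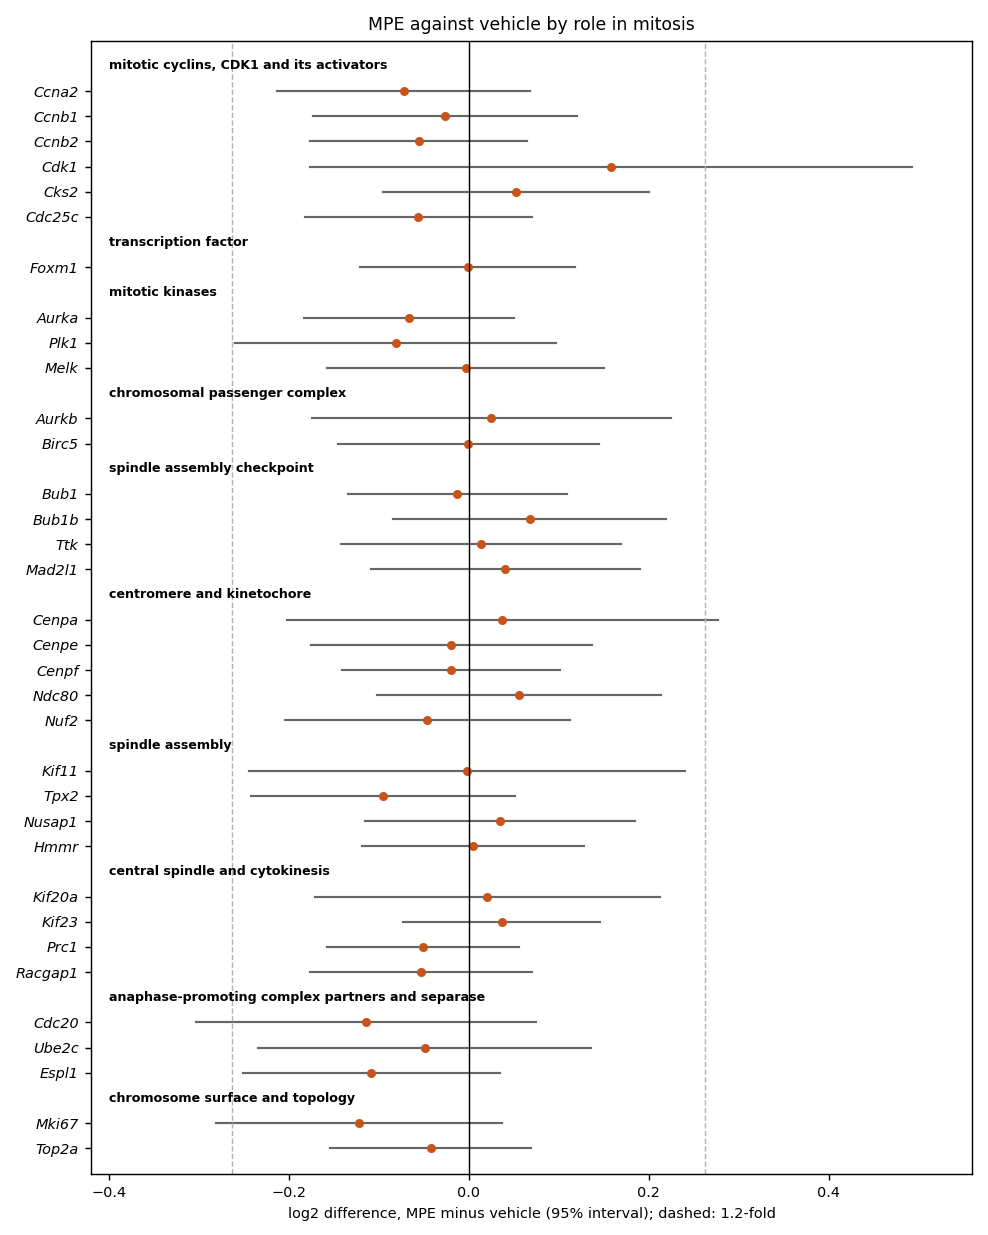
Log2 difference, MPE minus vehicle, with its 95% confidence interval for each of the 34 genes, grouped by role, with dashed lines at 1.2-fold in either direction. Every interval includes 0, and the estimates run from -0.12 for Mki67 to 0.16 for Cdk1.

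**Figure D3:**
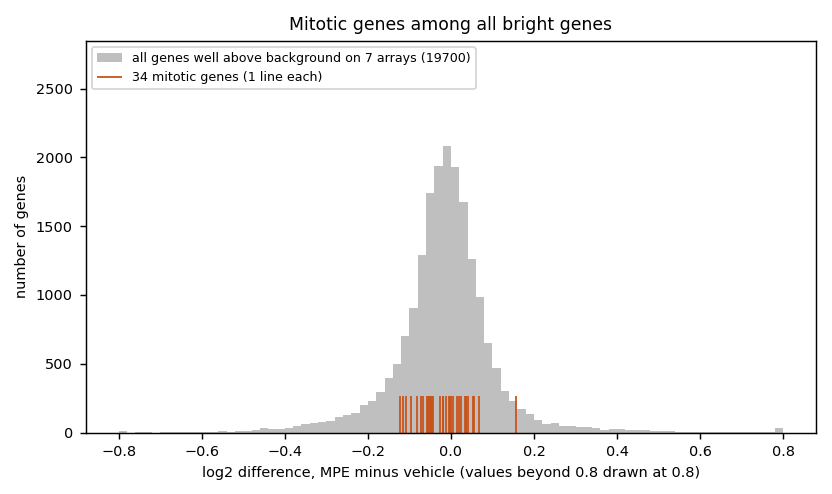
Number of genes (vertical axis) by log2 difference, MPE minus vehicle (horizontal axis), for the 19700 genes well above background on all 7 arrays in grey, with 1 orange line for each of the 34 mitotic genes. The mitotic genes, with a median of -0.0162, stand around the middle of the grey distribution, whose median is -0.0131.

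The mean over the 34 genes was 3.54, 3.54, 3.56 and 3.55 on the MPE arrays and 3.51, 3.61 and 3.57 on the vehicle arrays. Vehicle replicate 1 had the lowest mean and vehicle replicate 2 the highest, so the MPE arrays lay between vehicle arrays. The genes' own spread within groups was small, with a median SD of 0.0699, against 0.11 over the 19700 genes measured on all arrays, many of them dimmer.

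Agreement between the genes from array to array was weak. Over 561 pairs of genes the median Pearson correlation across the 7 arrays was 0.125, against 0.0125 over all pairs of the 19700 genes measured on all arrays. After each group's mean was removed it was 0.149, against 0.0095. The correlation was below 0 for 39.2% of the pairs (49.2% of all) and at least 0.5 for 24.4% (19.5% of all). All pairs share the same 7 arrays and their scaling, and the value moves with the scaling: it was 0.575 with each array's median in place of its 75th percentile, where it was 0.3235 over all genes.

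**Figure D4:**
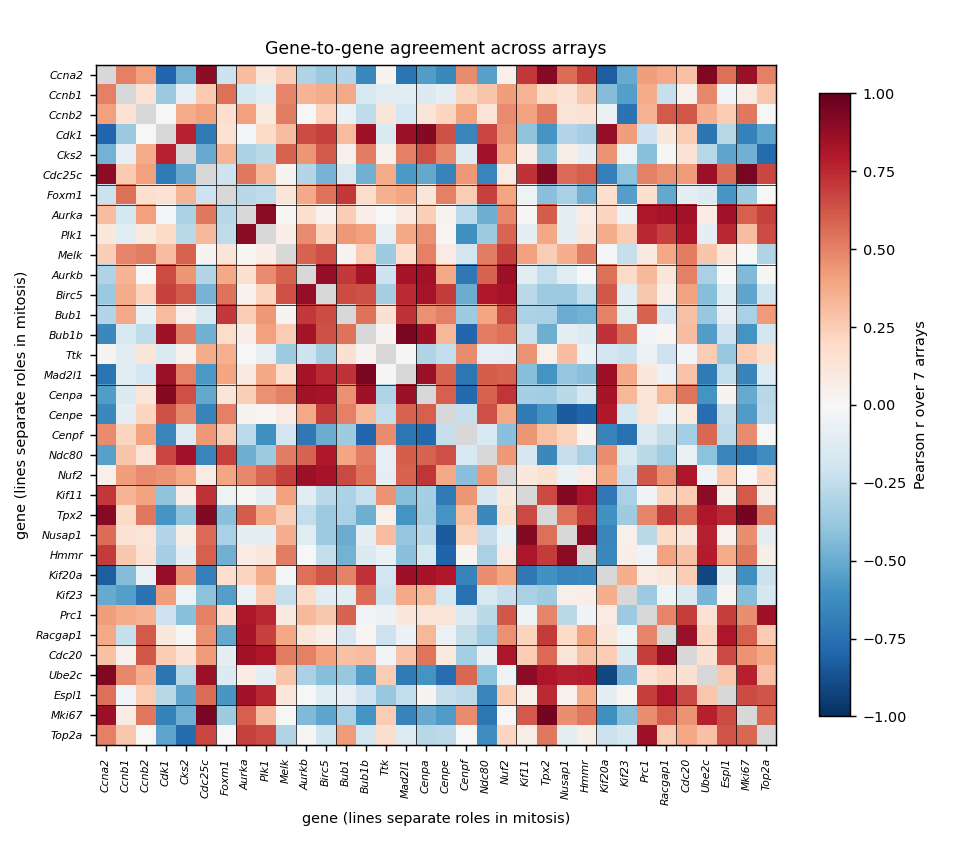
Pearson correlation across the 7 arrays for each pair of the 34 genes, in order of role with lines between the roles, from blue (-1) to red (1). Red and blue cells lie side by side within and between roles, from -0.907 for Kif20a and Ube2c to 0.954 for Mki67 and Tpx2.

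The highest correlations were 0.954 between Mki67 and Tpx2, 0.952 between Mki67 and Cdc25c, and 0.943 between Bub1b and Mad2l1, whose products act in the same checkpoint complex. The lowest were -0.907 between Kif20a and Ube2c and -0.831 between Cenpe and Nusap1. Against the mean of the other 33 genes, Nuf2 (0.929) and Cdc20 (0.895) were most alike and Cenpf (-0.426) least. Some genes whose products bind each other varied together, and others did not, in a set of pairs chosen after the values were seen. Aurkb and Birc5 had a correlation of 0.881, and Cdk1 and Cks2 one of 0.767. Cdk1 and Ccnb1, which encode the kinase and its cyclin, had -0.368, and Cdk1 and Ccna2 had -0.792. These values use the brightest probe of each gene. The Ccna2 probes correlated with each other at -0.43, and the Ccnb1 probes at -0.0472 to 0.645. Both values, signs included, can therefore depend on the probe used. Between Aurka and Tpx2 the correlation was 0.602, and 0.266 after each group's mean was removed. Removal of the group means raised it between Ndc80 and Nuf2 (0.644, against 0.436 before), Kif23 and Racgap1 (0.493, against -0.0425), and Kif20a and Prc1 (0.309, against 0.0784). It likewise raised it between Cdc20 and its inhibitors, to 0.573 from 0.282 for Mad2l1 and to 0.781 from 0.311 for Bub1b. The other pairs of this set moved by less than 0.1. With 7 arrays and differences this small, these values describe the arrays and no test was made of them. The 19 genes whose promoters held both CCAAT and a CHR word had a median pairwise correlation of 0.143, and the other 9 genes with a listed promoter had one of 0.427.

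Several genes moved with the replicate number in both groups, a pattern chosen after the values were seen. The shift of replicate 3 (with replicate 4 in MPE) from replicates 1 and 2 had the same sign in both groups for 24 of the 34 genes (70.6%), against 71.0% of all genes. Cdk1 shifted by 0.20 in MPE and 0.40 in vehicle. Kif11 shifted by -0.21 in MPE and -0.21 in vehicle, and Ube2c by -0.14 in MPE and -0.20 in vehicle. Cenpa shifted by 0.18 in MPE and 0.18 in vehicle, and Kif20a by 0.14 in MPE and 0.22 in vehicle. For these 5 genes the shifts of both groups were larger in size than the difference between MPE and vehicle. That is easily met where the difference is close to 0, as for Kif11 (-0.0019), and the share over all genes was not computed.

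Of the 34 genes 14 had several probes, which measure the same transcripts at other places. The difference between MPE and vehicle had the same sign on all probes of a gene for 8 of the 14, and not for Birc5, Ccna2, Ccnb1, Foxm1, Hmmr and Top2a. Over 20 probe pairs the median correlation across the arrays was 0.272, from -0.574 for Cenpf to 0.945 for Mad2l1. The Cdc20 probes, at differences of -0.11 and -0.03, had a correlation of 0.816, and the Top2a probes, at -0.04 and 0.05, one of -0.471. In a limma fit over 28938 probes, none of the 51 had an unadjusted p below 0.05, against 4.16% of all probes, and the smallest was 0.115.

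**Figure D5:**
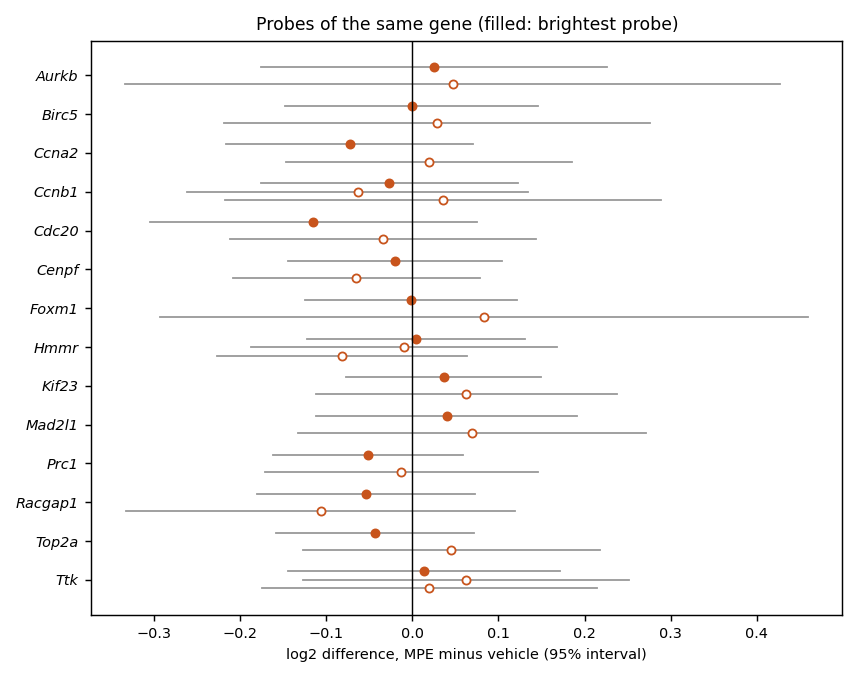
Log2 difference, MPE minus vehicle, with its 95% confidence interval for each probe of the 14 genes that have several probes, filled for the brightest probe of a gene. The probes of Cdc20 both lie below 0 (-0.11 and -0.03), those of Top2a on either side (-0.04 and 0.05).

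The rest of the cell cycle was examined through further lists of genes. Of 63 other mitotic genes 27 lay above 0 and 36 below, with a median of -0.017, and none passed. In this list Kif15, a spindle kinesin gene, had the highest difference, 0.24 ± 0.1575, and Gtse1, a gene for a microtubule-binding regulator of p53, had -0.13 ± 0.0581 (unadjusted p = 0.0555). Of 41 genes of DNA replication 20 lay above 0 and 21 below, with a median of -0.00052, and none passed. Cdt1, which loads the replicative helicase onto origins, was at 4.73, 4.72, 4.92 and 4.87 in MPE and at 4.64, 4.64 and 4.70 in vehicle. Its groups did not overlap, with every MPE value higher, as for 1.17% of all genes. Its difference was 0.15 ± 0.0669 with an unadjusted p of 0.0601, the smallest of this list (adjusted p = 1, limma). Ccne2, which encodes cyclin E2, differed by -0.17 ± 0.1102.

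Of 14 genes for G1 cyclins, their kinases and inhibitors 12 were tested, with 6 above 0, 6 below and a median of 0.00098, and Ccnd1 and Cdk6 were not measured on enough arrays. Cdkn2a, which encodes the inhibitor p16 and the p53 activator Arf, had a difference of -0.19 ± 0.1878. In a list of genes for DREAM, MuvB and NF-Y factors and related regulators, 17 of 18 were tested, 6 above 0 and 11 below, with a median of -0.0166. Nfya, the DNA-binding subunit of NF-Y, differed by 0.14, and Mybl2, which encodes B-Myb, by -0.05. Of 17 genes for the anaphase-promoting complex, its Cdh1 activator, its inhibitor and Ube2s, 7 lay above 0 and 10 below, with a median of -0.0153. The subunit gene Cdc27 differed by -0.12 and Ube2s, which extends ubiquitin chains on its substrates, by -0.15. In the other direction, the subunit genes Anapc10 and Anapc1 differed by 0.079 and 0.0791. Of 15 targets of p53, the factor that halts the cycle after DNA damage, 12 were tested, 3 above 0 and 9 below, with a median of -0.0244. No gene of these lists passed the test or had an unadjusted p below 0.05.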

How the data were processed

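Spot intensities were deposited as Agilent Feature Extraction output, background-subtracted and detrended within each array per the file headers. The software version is 11.5.1.1 in those headers and 10.5.1.1 in the submitters' processing notes. The authors' deposited value table holds log2 values per probe, with the tool not given in the sources used here. Gene symbols came from a RefSeq table (GRCm38.p6, names only) through the transcript accession, for 32994 of 56605 probes. Spots marked as controls, and 611 values marked as outliers, were not used. Log2 processed intensities were reduced by the array's 75th percentile, probes had to be well above background on 3 arrays or more, and the probe with the highest mean stood for its gene. MPE was compared with vehicle by limma 3.58.1 (lmFit, eBayes) in R 4.3.3 over 22098 genes with Benjamini-Hochberg adjustment at 0.05, and the fit was tested on simulated data. The precision is limited by the number of arrays.

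The mitotic genes and the other lists were chosen with earlier results of these data known. Values on every array are given for 10 genes fixed by name (Mki67, Top2a, Cdk1, Ccnb1, Plk1, Aurkb, Birc5, Foxm1, Bub1b and Cdc20), for any with an unadjusted p under 0.05 and for the 3 with the largest differences in each direction. Of each other list up to 2 genes per direction with the smallest unadjusted p were eligible to be named. Kif23 and Prc1 were added because their groups did not overlap on the probe used. The alternatives were other scalings, filters, probe choices, variances and blocks, the authors' table and each array left out. Normexp with an offset of 50 used the median spot intensity, since the planned mean spot intensity is not in the files used here.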

Additional observations from a re-analysis of the deposited data

Results flagged for a closer look

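In the 4 MPE samples, a value far from the other 3 was found for Tpx2 in replicate 3, at 3.01 where each of the others was 3.14 (log2 relative to the 75th percentile), and for Espl1 in replicate 4, at 1.75 where the others lay between 1.58 and 1.60. Among the 34 groups checked, 2 were marked in this way, where about 1.7 would be by chance at the 95% level.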

How the results depend on the processing

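No mitotic gene passed the adjusted threshold in any of the 20 alternatives, with a smallest adjusted p of 0.319 (limma), although 82 of 680 signs of single differences changed. The 680 include settings that left every difference of these genes unmoved (no filter, a filter on all 7 arrays and trended robust variance). They also include both block settings, whose differences repeat those without MPE replicate 4 or without MPE replicate 3. The median difference of the 34 genes was -0.0162, and -0.0348 to 0.0012 with each array left out. With normexp the median was 0.0067, against -0.009 over all genes, and without vehicle replicate 1 it was -0.0348, against -0.0118. Median scaling moved it to -0.086, and that of all genes to -0.0857. The unadjusted limma p of Espl1 fell below 0.05 under median scaling (0.0313), array weights (0.0499) and without MPE replicate 4 (0.0294). That of Cdc20 did so without vehicle replicate 1 (0.0295). In each of these settings this was 1 of the 34 genes. Over all genes the share below 0.05 was 6.34%, 6.16%, 5.14% and 3.14% in the same order. Over all genes 1 passed in the main setting, 0 to 4 in the others and 9996 of 45616 with no filter on dim probes, none of them mitotic. The median correlation between the genes was 0.125, and 0.575 with median scaling, 0.1995 with the percentile taken over always-detected probes, 0.2002 with quantile normalization, 0.209 in the values of the authors, 0.241 with the mean of a gene's probes, 0.257 with the lowest probe and 0.3355 with slide columns as blocks. Leaving out single arrays gave 0.007 (without vehicle replicate 2) to 0.211 (without MPE replicate 3). The causes were not tested.

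With the replicate number as a block, the median difference was -0.0035, the median correlation was 0.273, and no gene passed, mitotic or other. The unadjusted limma p of Espl1 was 0.0357, the only one of the 34 below 0.05, against 8.61% of all genes. No vehicle sample had number 4, so the differences in this setting were those without MPE replicate 4. Slide columns as blocks likewise gave the differences without MPE replicate 3, which had no vehicle array in its column. The deviations of same-numbered samples correlated at 0.248, 0.0508 and 0.413 over all genes and at 0.676, 0.209 and 0.7235 over the 34. Over all genes vehicle replicate 1 correlated above 0 with MPE replicates 1 and 2 (0.248 and 0.305) and below 0 with 3 and 4 (-0.334 and -0.182), and vehicle replicate 3 the other way round. Vehicle replicate 2 correlated only weakly with MPE replicates 1 to 4 (0.125, 0.051, -0.15 and -0.011). Deviations within a group sum to 0, so the opposite signs of vehicle replicates 1 and 3 are not separate observations. Vehicle replicate 1 thus deviated in the direction of MPE replicates 1 and 2, and vehicle replicate 3 in that of MPE replicates 3 and 4. The labels do not say that a number marks a shared culture or day.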

Other observations

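The 19 mitotic genes whose probes lay in the lower-numbered rows of the array had a median difference of -0.0014, and the 15 in the higher-numbered rows had -0.0265. Over all genes the medians were -0.003 and -0.0287 in the same rows.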
